A study of Homo sapiens with 8 samples.

Results

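The 9 genes described here, BRCA1, BRCA2, RAD51AP1, RAD54L, EXO1, BLM, FANCD2, FANCI and MND1, act in homologous recombination or in the Fanconi anaemia pathway. They were chosen with earlier results of these data known. Taken by symbol, each matched 1 row in both deposited tables, which list 58302 genes. The study sequenced ribosome-protected fragments (footprints) and total input RNA of the established cell line MOLM-13, an acute myeloid leukaemia with MLL-AF9 and the internal tandem duplication of FLT3. All cells carried a hairpin: either the control hairpin sh-NC or sh-circMYBL2, directed at a circular RNA of the MYBL2 locus (the titles spell this hairpin Sh-cricMY1). No row was matched to circMYBL2, so its own level was not analysed here. Each of the 4 groups (footprints or input RNA with either hairpin) had 2 libraries, and the labels give no time point and do not say whether a hairpin line was a pool or a clone. Nor do they state that a group's libraries were separate cultures, and a p-value here covers only the spread among these samples, possibly a technical one.

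Homologous recombination repairs a broken chromosome by copying the sister chromatid, and it works mainly in S and G2 phase. The broken end is resected to single-stranded DNA, BRCA2 helps a protein filament form on it, and the filament invades the sister. The Fanconi anaemia pathway opens cross-links between DNA strands at stalled replication forks, and its central step is the ubiquitination of the FANCD2-FANCI pair. Many of these genes are transcribed around the G1/S transition, when E2F factors are released from RB proteins. In bulk libraries, fewer cells in a given phase and less RNA per cell cannot be told apart.

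Promoters are described first, and their part in the RNA levels of these genes was not tested. RefSeq windows of GRCh38.p14, from 250 bases before to 50 bases after each annotated start, were found for 8 of the 9 genes. Short words were searched on both strands. The E2F core was taken as the letters TTCCCGC, or with other middle letters as the word TTGGCGC, as the word TTCGCGC or as the word TTGCCGC. The cell cycle homology region was the word TTTGAA, and the CCAAT box was those 5 letters. The letters were settled after these promoters had been seen. An E2F core was found in 7 of the 8 genes, all but BRCA2, whereas 15.3% of 27305 genes with a window held one. The cell cycle homology region was found in 0 of the 8 genes and in 18.2% of all. The CCAAT box was in 4 of the 8 genes (BRCA1, RAD51AP1, RAD54L and BLM) and in 39.7% of all. A match is a description of letters and not evidence of binding. The windows below run from 120 bases before to 30 bases after the start. For a gene with several windows, the window with the most matches is shown. They belong to the 4 tested genes with the largest rise in log2(FPKM + 1) of RNA (MND1, EXO1, BRCA1, RAD51AP1) and to the 2 with the smallest (BRCA2, FANCD2). Capitals mark an E2F core or a CCAAT box as read 5′ to 3′ on the strand of the gene.
MND1, chr4:153344568-153344717, plus strand: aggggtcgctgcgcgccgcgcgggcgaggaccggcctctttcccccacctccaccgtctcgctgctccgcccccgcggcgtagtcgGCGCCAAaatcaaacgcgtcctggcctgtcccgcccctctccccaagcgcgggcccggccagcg
EXO1, chr1:241848084-241848233, plus strand: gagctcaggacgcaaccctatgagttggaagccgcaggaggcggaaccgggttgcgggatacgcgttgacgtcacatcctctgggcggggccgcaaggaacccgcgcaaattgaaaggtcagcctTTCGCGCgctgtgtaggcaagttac
BRCA1, chr17:43125335-43125484, minus strand: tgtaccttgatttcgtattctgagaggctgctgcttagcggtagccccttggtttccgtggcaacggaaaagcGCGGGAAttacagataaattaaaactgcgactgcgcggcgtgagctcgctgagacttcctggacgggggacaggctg
RAD51AP1, chr12:4538770-4538919, plus strand: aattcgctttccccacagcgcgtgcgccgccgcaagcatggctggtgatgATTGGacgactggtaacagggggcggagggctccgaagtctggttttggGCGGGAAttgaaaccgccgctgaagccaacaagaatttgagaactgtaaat
BRCA2, chr13:32315388-32315537, plus strand: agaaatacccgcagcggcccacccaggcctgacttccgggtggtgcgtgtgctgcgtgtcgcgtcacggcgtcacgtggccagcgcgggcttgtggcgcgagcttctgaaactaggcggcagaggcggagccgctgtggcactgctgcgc
FANCD2, chr3:10026317-10026466, plus strand: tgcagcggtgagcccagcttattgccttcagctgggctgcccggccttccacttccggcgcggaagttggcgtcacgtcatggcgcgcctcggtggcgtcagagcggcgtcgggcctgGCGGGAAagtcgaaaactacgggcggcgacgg
In the window of BRCA1, the core began 47 bases before the start. In RAD51AP1 it began 21 bases before the start, and a CCAAT box began 70 bases before it. FANCD2 held the same core letters as BRCA1 and RAD51AP1, 2 bases before its start. The core of MND1 began 34 bases before the start shown and 5 bases after another annotated start.

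Depth was 13504574 to 14603187 reads on genes per input RNA library. Per footprint library it was only 80156 and 300378 reads for the sh-NC pair and 222845 and 715058 for sh-circMYBL2 libraries a and b, so named because their columns carry no replicate number. Protein-coding reads were 33708, 88701, 125761 and 584183 in the same order. MicroRNA genes took 42.7%, 57.2%, 32.8% and 12.2% of the reads on genes in that order. The 9 genes together had 14841 input RNA reads but only 991 footprint reads, of which 730 came from library b. Lineage markers were examined, which cannot identify the cell line itself. A mean of at least 1 FPKM was reached by 10 of 10 myeloid markers. It was reached by 0 of 14 erythroid and megakaryocyte, 0 of 10 lymphoid and 1 of 10 adherent cell markers.

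The first comparison asked whether RNA of the 9 genes differed between the hairpins. It was higher with sh-circMYBL2 for all 9, and neither library of one hairpin overlapped with a library of the other. Of 12489 genes tested, 30.0% were separated in this direction and 30.7% in the other. The 8 genes that passed the filter (a mean of at least 1 FPKM) all rose in limma's moderated test at a Benjamini-Hochberg adjusted p under 0.05, where 4.92% of all genes tested rose and 3.96% fell (8.88% in either direction). Their median change was 0.94 on the log2(FPKM + 1) scale, beside 0.00 for all genes. Because the 9 genes were chosen with earlier results known, setting their shares and median beside those of all genes is a description only. RAD54L, with a mean under 1 FPKM, was not tested. Changes given below as log2 are on that scale, which understates the change of low genes, and fold values are ratios of group means of FPKM.

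**Figure D1:**
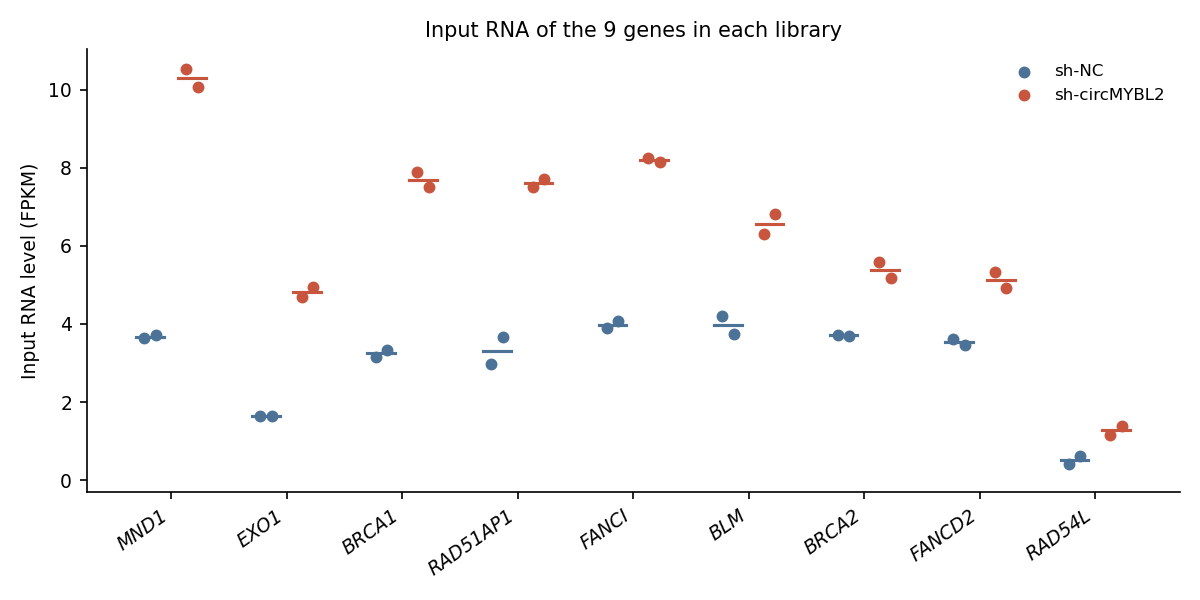
Input RNA of the 9 genes in FPKM, 1 point per library with a bar at the group mean (n = 2 per hairpin). For each gene both sh-circMYBL2 libraries lie above both sh-NC libraries, from 1.17 and 1.39 FPKM in RAD54L to 10.5 and 10.07 FPKM in MND1.

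BRCA1 (ENSG00000012048, GRCh38.p14 chromosome 17, 43044295 to 43170327) is the ubiquitin ligase subunit that promotes end resection and brings in BRCA2 through PALB2. Its RNA was 3.16 and 3.33 FPKM with sh-NC and 7.90 and 7.502 FPKM with sh-circMYBL2. The level was 2.37-fold higher, a log2 change of 1.03 (SE 0.06, 95% interval 0.87 to 1.20, limma adjusted p = 0.0104). BRCA2 (ENSG00000139618, chromosome 13, 32315077 to 32400268), which helps the filament form on resected DNA, had 3.71 and 3.70 FPKM with sh-NC and 5.59 and 5.19 FPKM with sh-circMYBL2. Its rise was smaller, 1.45-fold or 0.44 on the log2 scale (SE 0.06, 95% interval 0.27 to 0.61, limma adjusted p = 0.0357). The intervals of BRCA1 and BRCA2 did not overlap, and both RNAs were at a like level with sh-NC, but the difference between the genes was not tested.

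RAD51AP1 (ENSG00000111247, chromosome 12, 4538890 to 4560047) stimulates strand invasion. Its RNA was 2.97 and 3.67 FPKM with sh-NC and 7.52 and 7.73 FPKM with sh-circMYBL2, a log2 rise of 1.002 (SE 0.10, limma adjusted p = 0.0186). RAD54L (ENSG00000085999, chromosome 1, 46247688 to 46278473) encodes RAD54, the motor protein that remodels DNA during strand invasion. It was the lowest of the 9, at 0.421 and 0.606 FPKM with sh-NC and 1.17 and 1.39 FPKM with sh-circMYBL2. The groups did not overlap, and the ratio of scaled reads was 2.48 with a 95% counting interval of 1.75 to 3.57, which covers counting error only. Fitted without the filter, its log2 change was 0.59 (limma adjusted p = 0.187), which did not pass.

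MND1 (ENSG00000121211, chromosome 4, 153344649 to 153415118) forms a dimer with PSMC3IP (HOP2) and is known above all from meiosis, where the dimer helps DMC1 bring homologous chromosomes together. Its RNA was present in these leukaemia cells at 3.63 and 3.72 FPKM with sh-NC and at 10.5 and 10.07 FPKM with sh-circMYBL2. The level was 2.80-fold higher, a log2 rise of 1.27 (SE 0.05, 95% interval 1.13 to 1.42, limma adjusted p = 0.00724). PSMC3IP itself rose, from 3.67 ± 0.383 to 8.12 ± 0.322 FPKM (SD, n = 2 each; log2 change 0.97, limma adjusted p = 0.0147). DMC1, the meiotic recombinase, had group means of 0.115 FPKM with sh-NC and 0.250 FPKM with sh-circMYBL2, under the filter, and was not tested.

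EXO1 (ENSG00000174371, chromosome 1, 241847986 to 241889939), an exonuclease of long-range resection and mismatch repair, had 1.65 and 1.64 FPKM with sh-NC and 4.70 and 4.96 FPKM with sh-circMYBL2. The level was 2.93-fold higher, and the log2 change was 1.14 (SE 0.07, 95% interval 0.94 to 1.33, limma adjusted p = 0.0109). BLM (ENSG00000197299, chromosome 15, 90717346 to 90816166), the RecQ helicase that also dissolves joined recombination intermediates, had 4.20 and 3.73 FPKM with sh-NC. With sh-circMYBL2 it had 6.30 and 6.82 FPKM, a log2 rise of 0.61 (SE 0.08, 95% interval 0.39 to 0.82, limma adjusted p = 0.0289). Of the genes that act beside them, the nuclease DNA2 had a log2 change of 0.52 (limma adjusted p = 0.0772) and BLM's partners RMI1 and TOP3A had changes of 0.40 and 0.12 (limma adjusted p = 0.0882 and 0.435), none past the threshold. With voom on recovered reads DNA2 (0.83, adjusted p = 0.00018) and RMI1 (0.50, adjusted p = 0.00307) passed.

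FANCD2 (ENSG00000144554, chromosome 3, 10026437 to 10101932) and FANCI (ENSG00000140525, chromosome 15, 89243979 to 89317259) encode the paired subunits of one clamp. FANCD2 RNA was 3.61 and 3.47 FPKM with sh-NC and 5.32 and 4.93 FPKM with sh-circMYBL2. FANCI RNA was 3.89 and 4.08 FPKM with sh-NC and 8.25 and 8.15 FPKM with sh-circMYBL2. Their levels were alike with sh-NC, and the log2 rise was 0.43 for FANCD2 (95% interval 0.25 to 0.62, limma adjusted p = 0.0401) against 0.88 for FANCI (95% interval 0.74 to 1.03, limma adjusted p = 0.0109). The intervals of the pair did not overlap, but the difference between the genes was not tested. RefSeq lists pseudogene copies of FANCD2, BRCA1, RAD51AP1 and MND1, and the authors' counting could have split reads among them. BRCA1, RAD54L, FANCI, FANCD2 and BRCA2 overlap NBR2, LRRC41, POLG, FANCD2OS and ZAR1L respectively in RefSeq, and the use of strand in counting is not given in the sources used here.

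All 8 calls in RNA rested on both libraries of each hairpin: when 1 of the 4 input libraries was dropped, whichever it was, 0 of the 8 genes passed, with limma adjusted p from 0.0800 to 0.168 and each change still above 0. In those fits 0 genes of the whole table passed.

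The other genes of these pathways were taken from lists, whose calls depended on the filter: with none, 0 genes of the recombination, Fanconi, end joining and mismatch repair lists passed. Of 43 other homologous recombination genes, 36 were tested, 9 rose and 1 fell, with a median log2 change of 0.19. XRCC2, which acts in strand exchange, rose from 2.42 ± 0.139 to 5.58 ± 0.110 FPKM (SD, n = 2 each; log2 change 0.94, limma adjusted p = 0.0117). The BRCA1 partners BARD1, which forms the ligase with it, and BRIP1, a helicase, rose by 0.43 and 0.84 (limma adjusted p = 0.0390 and 0.0451). The call of BRIP1 was lost with a pseudocount of 0.1 (limma adjusted p = 0.0575). The helicase subunit MCM8 rose by 0.47 (limma adjusted p = 0.0286). The same test called PSMC3IP, RAD54B, RPA3 and SFR1 higher. PALB2, which links BRCA1 to BRCA2, had a log2 change of -0.08 (limma adjusted p = 0.329), and RBBP8 (CtIP), which starts resection, 0.16 (limma adjusted p = 0.172). NBN, a subunit of the break sensor MRN, was the gene of this list that fell, by 0.31 (limma adjusted p = 0.0286).

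Of 24 other Fanconi genes, 19 were tested, 3 rose and 1 fell, with a median of 0.09. The risers were UBE2T, the E2 enzyme that ubiquitinates FANCD2 (log2 change 0.64, limma adjusted p = 0.0142), USP1, the enzyme that removes that ubiquitin (0.44, limma adjusted p = 0.0462), and FANCA, a core complex subunit (0.64, limma adjusted p = 0.0474). The nuclease FAN1 fell by 0.32 (limma adjusted p = 0.0464). FANCL, the E3 ligase of FANCD2, and WDR48, the USP1 cofactor, had changes of 0.27 and 0.03 (limma adjusted p = 0.198 and 0.746). With voom on recovered reads FANCL passed as well (0.31, adjusted p = 0.0422), and with a pseudocount of 0.1 FANCA did not (limma adjusted p = 0.0603). Differences between these genes were not tested.

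Among 15 genes of end joining, 14 were tested, 2 rose and 1 fell, with a median of 0.08. The polymerase POLQ (log2 change 0.74, limma adjusted p = 0.0180) and PARP1, a sensor of DNA breaks (0.43, limma adjusted p = 0.0221), rose. The ligase LIG4 fell by 0.32 (limma adjusted p = 0.0379). Of 7 mismatch repair genes, all tested, 2 rose and 0 fell, with a median of 0.13. MSH6, which recognises mismatches, was among those that rose (0.51, limma adjusted p = 0.0193).

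**Figure D2:**
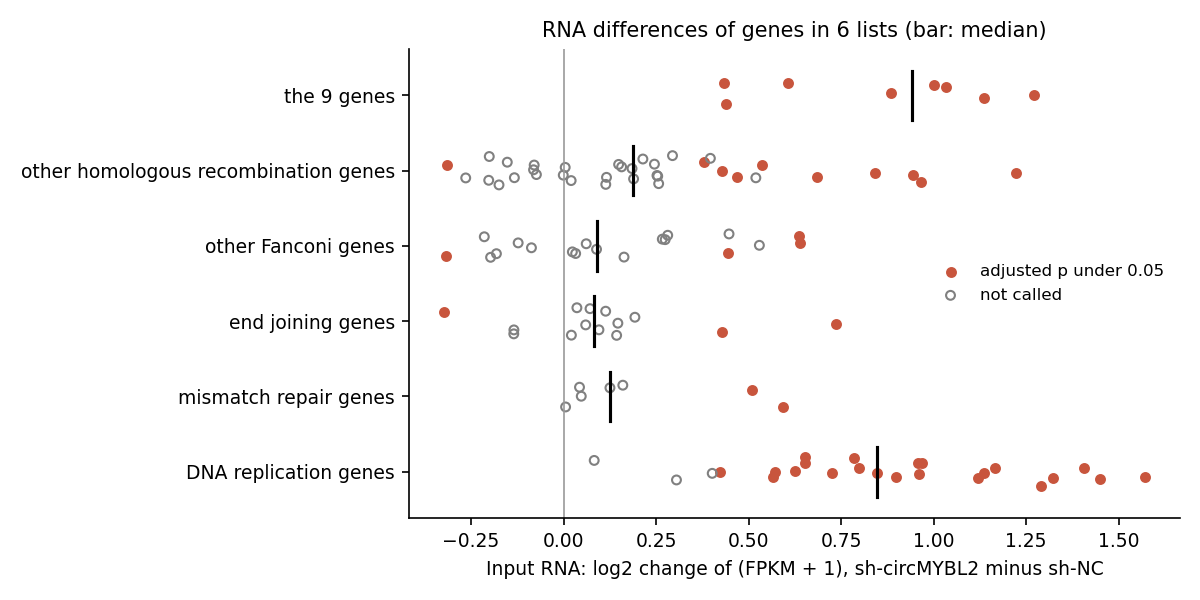
Log2 change in input RNA, sh-circMYBL2 minus sh-NC on the log2(FPKM + 1) scale, with 1 point per tested gene and filled points for calls at a limma adjusted p under 0.05. The 9-gene set (8 tested) has a median of 0.94 and the DNA replication genes one of 0.85, while the other recombination and Fanconi genes centre at 0.19 and 0.09. The 9 genes and the lists were chosen with earlier results of these data known.

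DNA replication genes were listed separately. Of 28 listed, 25 were tested and 22 rose, 0 fell, and the median change was 0.85. Their summed level was 232.5 and 229.9 FPKM with sh-NC and 433.8 and 438.8 FPKM with sh-circMYBL2, without overlap. Their part in the change of the 9 genes was not tested. Of the 10 myeloid markers, all tested, 2 rose and 0 fell, 5 had a change above 0, and the median was 0.04. Their summed level was 824 to 864 FPKM with sh-NC and 1009 to 1052 FPKM with sh-circMYBL2, most of it from LYZ, and its part in the change of the 9 genes was not tested. The protein-coding genes with the nearest RNA profile to the mean of the members, out of 5221 with a mean of at least 5 FPKM, were HIST1H2BD, NUSAP1, CHAF1A, KNTC1 and TUBA1B. Their Euclidean distances over the 4 RNA libraries ran from 0.0447 to 0.0759 in centred log2(FPKM + 1).

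The second comparison asked whether footprints of the 9 genes differed. None passed the limma test, and neither did any of the 9431 genes tested (background 0.0%), though 1212 genes, none of the 9 among them, had an unadjusted p under 0.05. The voom fit on recovered reads called 33 genes, none of the 9 among them. Footprints of 3 genes were higher in both sh-circMYBL2 libraries than in either sh-NC library, 33.3% of the 9 beside 30.7% of all genes. For 1 gene they were lower in both, 11.1% beside 10.9%. The other 5 overlapped, so these shares were near the background. The median log2(RPKM + 1) change was 0.83 over the members and 0.56 over all genes, which quantile normalization moved to 0.69 and 0.07. Without sh-NC footprint library 1 they were 0.10 and 0.21, and without sh-NC footprint library 2 they were 0.79 and 0.96. In either case the members' median was then below that of all genes. Both sh-NC libraries held fewer protein-coding reads than either sh-circMYBL2 library, and a larger share of microRNA reads. The part of this depth and this make-up in the footprint values was not tested.

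**Figure D3:**
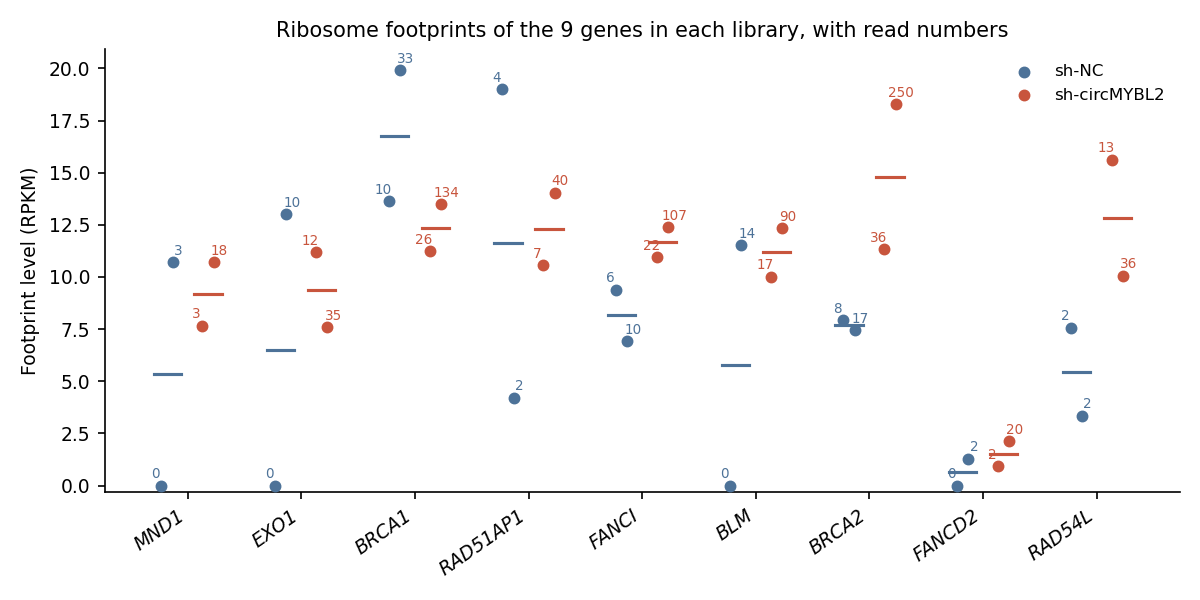
Footprints of the 9 genes in RPKM, 1 point per library with its read number and a bar at the group mean (n = 2 per hairpin). BRCA1 is lower in both sh-circMYBL2 libraries, BRCA2, RAD54L and FANCI are higher in both, and EXO1, BLM, FANCD2 and MND1 are at 0 in sh-NC library 1.

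For BRCA1, the sh-NC libraries gave 13.6 RPKM from 10 reads and 19.9 RPKM from 33 reads, and the sh-circMYBL2 libraries 11.3 RPKM from 26 reads and 13.5 RPKM from 134 reads. It was the member with lower footprints in both sh-circMYBL2 libraries, although its RNA was 2.37-fold higher there. The log2(RPKM + 1) change was -0.39 with a 95% interval of -1.74 to 0.95. BRCA2 went the other way, with 7.92 RPKM from 8 reads and 7.46 RPKM from 17 reads under sh-NC and 11.3 RPKM from 36 reads and 18.3 RPKM from 250 reads under sh-circMYBL2. That change of 0.83 had an interval of -0.65 to 2.30.

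RAD54L had 7.57 and 3.35 RPKM with sh-NC, each from 2 reads, and 15.6 RPKM from 13 reads and 10.07 RPKM from 36 reads with sh-circMYBL2. FANCI had 9.39 RPKM from 6 reads and 6.94 RPKM from 10 reads with sh-NC and 10.9 RPKM from 22 reads and 12.4 RPKM from 107 reads with sh-circMYBL2. Both were higher in each sh-circMYBL2 library, by 1.15 for RAD54L (interval -0.66 to 2.96) and by 0.48 for FANCI (interval -0.95 to 1.91) in log2(RPKM + 1). RAD51AP1 had 19.01 RPKM from 4 reads and 4.21 RPKM from 2 reads with sh-NC and 10.6 RPKM from 7 reads and 14.04 RPKM from 40 reads with sh-circMYBL2. Here the sh-NC libraries enclosed the other pair.

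EXO1, BLM, FANCD2 and MND1 had 0 reads in sh-NC library 1. A count of 0 there still allows up to 8.81 RPKM for EXO1, 5.57 for BLM, 4.35 for FANCD2 and 24.1 for MND1 (3 reads; counting error only). The other sh-NC library had 13.01 RPKM of EXO1 (10 reads), 11.5 RPKM of BLM (14 reads), 1.29 RPKM of FANCD2 (2 reads) and 10.7 RPKM of MND1 (3 reads). With sh-circMYBL2, EXO1 had 11.2 and 7.59 RPKM, BLM 10.02 and 12.3 RPKM, FANCD2 0.922 and 2.14 RPKM, and MND1 7.67 and 10.7 RPKM. The second sh-NC library thus lay within or near the range of the sh-circMYBL2 pair for these genes, and a difference was not detectable at this depth.

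The third comparison, translational efficiency, set the hairpin change in footprints against that in RNA as an interaction over the 8 libraries. None of the 8 members tested passed, where 5.05% of 8260 genes tested were called higher and 0.266% lower by limma (5.31% either way). One member, BRCA1, had an unadjusted p under 0.05. Its change was -1.43 (SE 0.39, 95% interval -2.40 to -0.45, unadjusted p = 0.0119, limma adjusted p = 0.108), and 4.69% of the genes tested lay below it. Both assays share 1 variance per gene in this fit, so the SE was below that of the footprint change alone (0.49). The interval is therefore too narrow. With array weights per assay it ran from -2.85 to -0.00265 (limma unadjusted p = 0.0497, adjusted p = 0.401). The change was negative in each of the 16 settings tried, from -1.69 to -0.94. Without sh-NC footprint library 1 it passed at -1.69 (limma adjusted p = 0.00531), and without sh-NC footprint library 2 it passed at -1.17 (limma adjusted p = 0.00667). In those fits the lone sh-NC footprint library is assumed to vary like the other groups, and calls were common there: 3 and 6 of the 8 members passed, and 3041 and 4895 of all genes. The other 7 tested members ran from -0.63 for RAD51AP1 (interval -2.84 to 1.57) to 1.17 for BLM (interval -2.70 to 5.04). The median of the 8 was 0.28, beside 0.57 for all genes tested. Its sign did not hold: it was -0.49 without sh-NC footprint library 1, -0.47 with quantile normalization, -0.59 with voom and -0.09 with a pseudocount of 5.

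**Figure D4:**
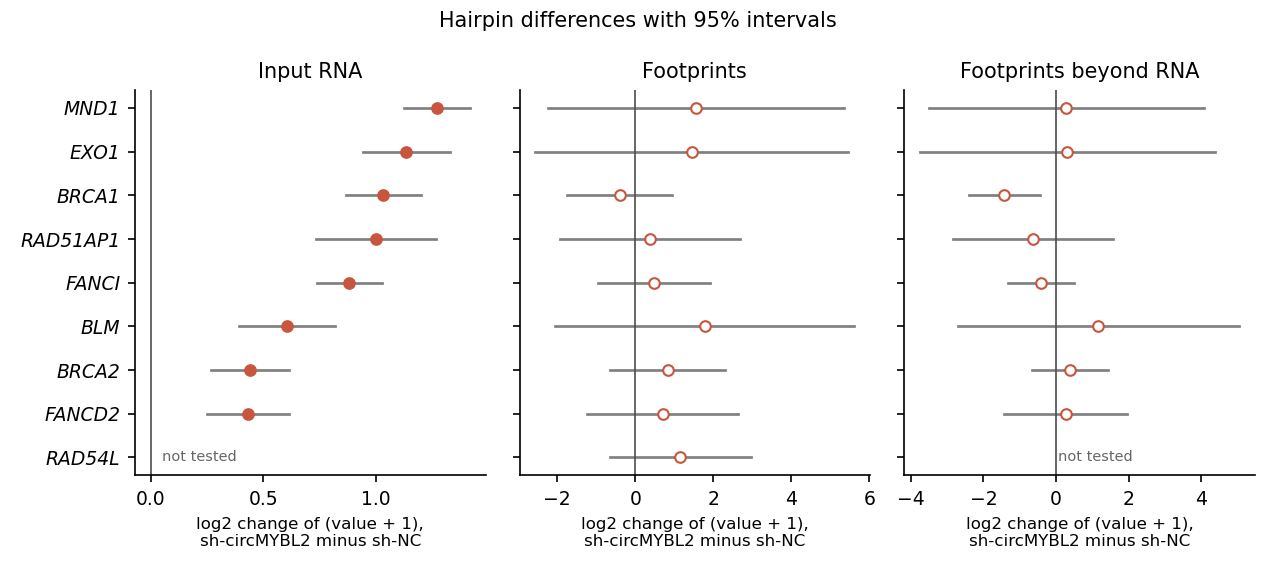
Log2 change, sh-circMYBL2 minus sh-NC, with 95% intervals for input RNA, footprints and translational efficiency (footprints beyond RNA) of each member, with filled points for calls at a limma adjusted p under 0.05. RNA intervals lie above 0 for the 8 tested genes, footprint intervals all span 0, and the translational efficiency interval of BRCA1, -2.40 to -0.45, lies below 0. Translational efficiency intervals use a variance shared by both assays and can be too narrow.

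Footprint level per RNA level, the ratio of group means in RPKM per FPKM, put most of the 9 genes in the upper part of the protein-coding genes. The median over 9093 protein-coding genes was 0.479 with sh-NC and 0.735 with sh-circMYBL2. RAD54L had the highest ratio among the members, 10.6 and 10.04, on the lowest RNA. With sh-NC it lay above 98.6% of all protein-coding genes. Among genes within 2-fold of its RNA level it lay above 85.6%, and their median was 1.17 rather than 0.479. BRCA1 had 5.17 with sh-NC and 1.61 with sh-circMYBL2, and BRCA2 had 2.08 and 2.75, so the order of the pair was opposite under the 2 hairpins. RAD51AP1 had 3.50 and 1.61, EXO1 3.95 and 1.95, BLM 1.45 and 1.70, FANCI 2.05 and 1.42, and MND1 1.45 and 0.891. With sh-NC these 5 ratios rested on 6, 10, 14, 16 and 3 footprint reads in that order. Those of RAD54L and FANCD2 rested on 4 and 2 reads. Shifts of the ratio between hairpins were not tested on this scale. FANCD2 was the only member below the median with either hairpin, at 0.182 and 0.299. Of protein-coding genes, 30.8% lay below FANCD2 with sh-NC and 19.2% with sh-circMYBL2. Among genes within 2-fold of its RNA level, 32.8% and 16.1% lay below it. Of those genes, 28.3% with sh-NC and 1.69% with sh-circMYBL2 had a ratio of 0, so its rank with sh-NC was just above these. With sh-circMYBL2, where it had 22 footprint reads, its partner FANCI had 129 reads on a summed exon length of 7766 bases against 8378 for FANCD2.

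**Figure D5:**
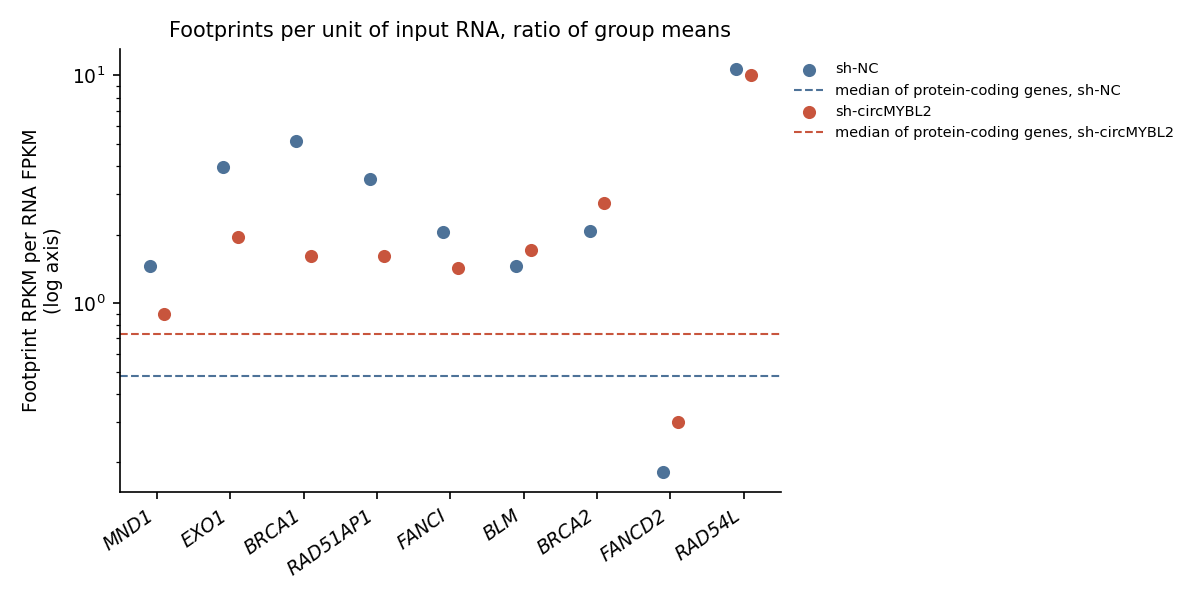
Footprint level per RNA level (mean RPKM over mean FPKM, log axis) of each member with sh-NC and with sh-circMYBL2, with the median of 9093 protein-coding genes as a dashed line for each hairpin. BRCA1 is at 5.17 with sh-NC and 1.61 with sh-circMYBL2, and FANCD2, at 0.182 (2 footprint reads) and 0.299 (22 reads), is the member below the median with both hairpins.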

How the data were processed

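Ribosome footprints and input RNA of MOLM-13 cells were analysed in 8 libraries, grouped by their titles. Per the labels' protocols, libraries were made with kits for ribosomal RNA removal and small RNA. The submitters' processing notes name cutadapt, Bowtie, HISAT2, featureCounts, DESeq2 and hg38. Versions, roles and strand: not given in the sources used here. The authors deposited RPKM values for footprints and FPKM values for input RNA. Reads per gene were recovered from the value steps (tolerance 0.02 reads) and used for depth and counting intervals only, besides the voom alternative.

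The members and lists were chosen with earlier results of these data known. Each table was fitted with limma 3.58.1 in R 4.3.3 (lmFit, eBayes with trend; two-sided), taking log2 of the value plus a pseudocount of 1 and keeping genes that averaged 1 or more. Translational efficiency was the interaction of hairpin and assay over 8 libraries, where 1 variance per gene serves both assays. The Benjamini-Hochberg adjustment ran over all genes tested. With 2 libraries a group, the smallest p of an exact permutation test is 0.333. Read recovery and fits were tested on simulated data. Named genes were the members, 18 fixed partners, up to 4 called genes per list and direction by smallest p, and the 5 nearest RNA profiles; RAD54B, RPA3, SFR1, UIMC1 and PRIM1 were named after their values were seen. Some genes that the rule names are not reported here. Coordinates and promoters came from RefSeq GRCh38.p14.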

Additional observations from a re-analysis of the deposited data

Results flagged for a closer look

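BRCA1 was flagged because its RNA and footprint values differed in opposite directions between the hairpins, although only the RNA change passed. RNA was higher in both sh-circMYBL2 libraries (7.90 and 7.502 FPKM against 3.16 and 3.33). Footprints were lower in both (11.3 and 13.5 RPKM against 13.6 and 19.9). The footprint change was -0.39 on the log2 scale, with an interval of -1.74 to 0.95 (limma adjusted p = 0.759). The ratio of scaled footprint reads was 0.726, with a counting interval of 0.516 to 1.04, so even counting error alone allows no decrease. The difference between the hairpin changes was -1.43 on the log2 scale (limma, unadjusted p = 0.0119, adjusted p = 0.108), so it did not pass after adjustment over all genes. With array weights per assay the limma adjusted p was 0.401. PARP1, outside the 9 genes, also had higher RNA (27.6 against 20.3 FPKM) and lower footprints (16.2 against 29.2 RPKM) without overlap. Its difference was -1.15 (limma adjusted p = 0.303). Of 25 replication genes tested, 9 had a difference above 0, with a median of -0.33. Of 32 other recombination genes, 19 did, with a median of 0.35. Of all 8260 genes tested, 5649 did, with a median of 0.57, so both lists had medians below that of all genes.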

How the results depend on the processing

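Every tested member had a change above 0 in RNA in each setting run, but fewer passed in some. Calls over all genes in RNA were 1109 in the main setting, 97 with no filter (56 higher, 41 lower), 3273 with voom (1742 higher, 1531 lower) and 0 whichever library was left out. Members called were 4 with no filter, 5 with a filter of at least 5 (5 tested) and 0 with any library left out. With voom the calls were 21 higher and 1 lower in the other recombination list, 6 and 3 in the Fanconi list and 5 and 2 in end joining. Replication genes called were 22 in the main setting, 7 with no filter and 13 with a filter of 5, which left 3 calls in the other recombination list. With the replicate number as a block in RNA, 0 genes and 0 members passed (3373 genes at an unadjusted p under 0.05). Deviations of same-numbered libraries correlated at r = 0.0265 over 12489 genes. This shows no large shared shift but cannot tell whether those libraries were prepared in pairs. Footprint columns carry no number for sh-circMYBL2, so no block was fitted there. Footprint calls were 33 with voom (4 higher, 29 lower) and 0 to 1042 with a library left out; FANCD2 was -0.42 with quantile normalization. Translational efficiency calls were 439 in the main setting, 853 with a pseudocount of 0.1, 2 with 5, 42 with a filter of 5, 0 with quantile normalization, 209 with voom, 1 with array weights and 0 to 4895 with a library left out, and members called were 0 to 6. It reversed to -0.0318 for FANCD2 and -0.15 for MND1 with a pseudocount of 5, to -0.37 for EXO1, -0.97 for FANCD2 and -0.39 for MND1 with quantile normalization, and to -0.68 for EXO1 and -1.02 for MND1 with voom. The cause was not tested.

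With a library left out, footprint changes ran from -0.60 to 1.34 for RAD51AP1, -0.45 to 3.36 for EXO1, -0.0453 to 3.60 for BLM and -0.22 to 3.33 for MND1. Translational efficiency ran from -1.60 to 0.34 for RAD51AP1, -1.59 to 2.22 for EXO1, -0.65 to 2.99 for BLM, -0.33 to 0.86 for FANCD2 and -1.49 to 2.06 for MND1. Both ends came from leaving out 1 or the other sh-NC footprint library. The planned edgeR fit was not run; voom was the one fit on recovered reads. Depth limits the footprint results: the 9 genes had 30 and 93 reads in the sh-NC libraries.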

Other observations

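Outside the 9 genes, the listed repair and replication genes called in translational efficiency were PALB2, UIMC1, FANCF, LIG4, POLM and PRIM1, all higher. All had 0 footprint reads in both sh-NC libraries. They passed the footprint filter only through sh-circMYBL2, so their footprints could not have been lower there. Values of 0 also give the sh-NC group no spread, so these calls are a description only. They were 2 of 32 other recombination, 1 of 16 other Fanconi, 2 of 14 end joining and 1 of 25 replication genes tested. Of all 8260 genes tested, 5.05% were called higher. Set against 3 reads, the limit for 0 reads over both sh-NC libraries, the scaled footprint ratio was 2.67 for PALB2 (41 reads with sh-circMYBL2). It was 2.34 for UIMC1 (36 reads), 3.51 for LIG4 (54 reads) and 2.02 for PRIM1 (31 reads). For FANCF (19 reads) and POLM (18 reads) it was 1.24 and 1.17. These ratios take the sh-circMYBL2 reads as exact and leave out the spread between libraries, so they are not lower limits of the change. LIG4, the ligase of classical end joining, had 20.1 FPKM of RNA with sh-NC and 15.9 FPKM with sh-circMYBL2. PALB2, which joins BRCA1 to BRCA2, had 7.82 and 7.35 FPKM.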
